A study of Homo sapiens with 6 samples.

Results

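Integrins and tetraspanins are cell surface proteins that work side by side in adhesion, and their transcripts were followed here in KMS11 cells after knockdown of CRIP1. The set was chosen by gene symbol: all alpha and beta integrin chains in the deposited table except ITGB7, all genes named TSPAN with a number, and the tetraspanins CD9, CD37, CD53, CD63, CD81, CD82 and CD151. It held 56 of the 17918 genes in the table. Of these, 25 encode integrin chains and 28 encode tetraspanins. The other 3 (ITGB1BP1, ITGB1BP2 and ITGB3BP) match the name pattern but encode neither, and are described last among the genes of the set.

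KMS11 is an established line grown from a human multiple myeloma, the malignancy of plasma cells. CRIP1, which encodes a small LIM domain protein, was knocked down with a short hairpin RNA (shRNA) in 3 libraries, and 3 control libraries came from cells with a scramble shRNA, whose genotype the labels list as WT. Neither group had any further treatment. The hairpin sequence, and whether the cells were pools or clones, are not given in the sources used here, and the labels do not say whether the libraries came from separate cultures. The p-values therefore measure only the spread between these libraries, which may be technical. The knockdown cells are called sh cells and the control cells scramble cells.

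An integrin is a pair of an alpha and a beta chain that binds matrix proteins or counter-receptors on other cells, and it signals in both directions across the membrane. Some chains have several partners, such as beta1, and others have a single one, such as beta5, beta6 and beta8, which pair only with alphaV. Myeloma cells hold to the bone marrow stroma largely through integrins of the alpha4 chain. Tetraspanins span the membrane with several helices and gather integrins, immunoglobulin superfamily proteins, proteases and signalling molecules into membrane microdomains. Several, CD63 above all, are also carried on late endosomes and on exosomes.

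CRIP1 checked the labels. It stood at 127, 129 and 134 TPM in the sh libraries, against 2791, 3327 and 3174 TPM in the scramble libraries (TPM is a transcript abundance per unit of gene length whose sum is equal in all libraries). CRIP1 was 26.2-fold lower in sh cells (edgeR, adjusted p = 6.15e-22). Library totals were between 16971454 and 18005318 estimated counts. Across genes, Pearson's r of log2 expression was 0.995 to 0.996 within groups and 0.921 to 0.923 between groups. Of 10 plasma cell markers, 9 were tested, 3 higher and 6 lower. That is 100% of those tested, against 77.6% of all genes tested. The summed level of the list was 3932 to 4190 TPM in sh and 8553 to 9008 TPM in scramble libraries. JCHAIN (1789 TPM in sh and 6443 TPM in scramble cells) and TNFRSF17 (1032 and 761 TPM) led the list, and SLAMF7 was nearly absent (0.14 and 0.0333 TPM). The part of the plasma cell state in the levels below was not tested.

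Of the 56 genes, 41 passed the filter on low counts, and 34 of these differed at an adjusted p below 0.05 in edgeR's quasi-likelihood test, 13 higher and 21 lower in sh cells. That is 82.9% of those tested, against a background of 77.6% of all 12612 genes tested, of which 39.4% were higher and 38.1% lower. The share is close to the background, so a call alone is no result about the set. Of all called genes 50.8% were higher, and 61.4% on the log2(TPM + 1) scale. In 36 of the 41 genes the TPM values of the groups did not overlap, as in 78.5% of all genes tested. At 2-fold or more, 5 were higher and 10 lower (36.6% of those tested), against 18.1% of all genes, 10.0% higher and 8.06% lower. The median log2 fold change (sh over scramble) of the 41 tested genes was -0.40, beside 0.01 over all genes. Without the count filter the median over 55 genes of the set was -0.11 in edgeR and -0.14 in DESeq2, beside 0.05 and 0.06 over all genes. CD53, ITGA2B, ITGA5 and ITGB3 passed the filter through the sh libraries alone, and ITGAX through the scramble libraries alone, so their calls lend no support to a direction of the set. ITGB1BP2 passed through libraries of both groups without filling either. Among the 35 genes that passed in both groups, 9 were higher and 20 lower. The shares over all genes that passed in both groups were not computed, so these counts have no matching background. On the log2(TPM + 1) scale all genes together lay 0.12 higher in sh cells (log2, median), so a small difference can take its sign from the scaling. Because these are bulk libraries, fewer cells of a type and less RNA per cell cannot be told apart.

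**Figure D1:**
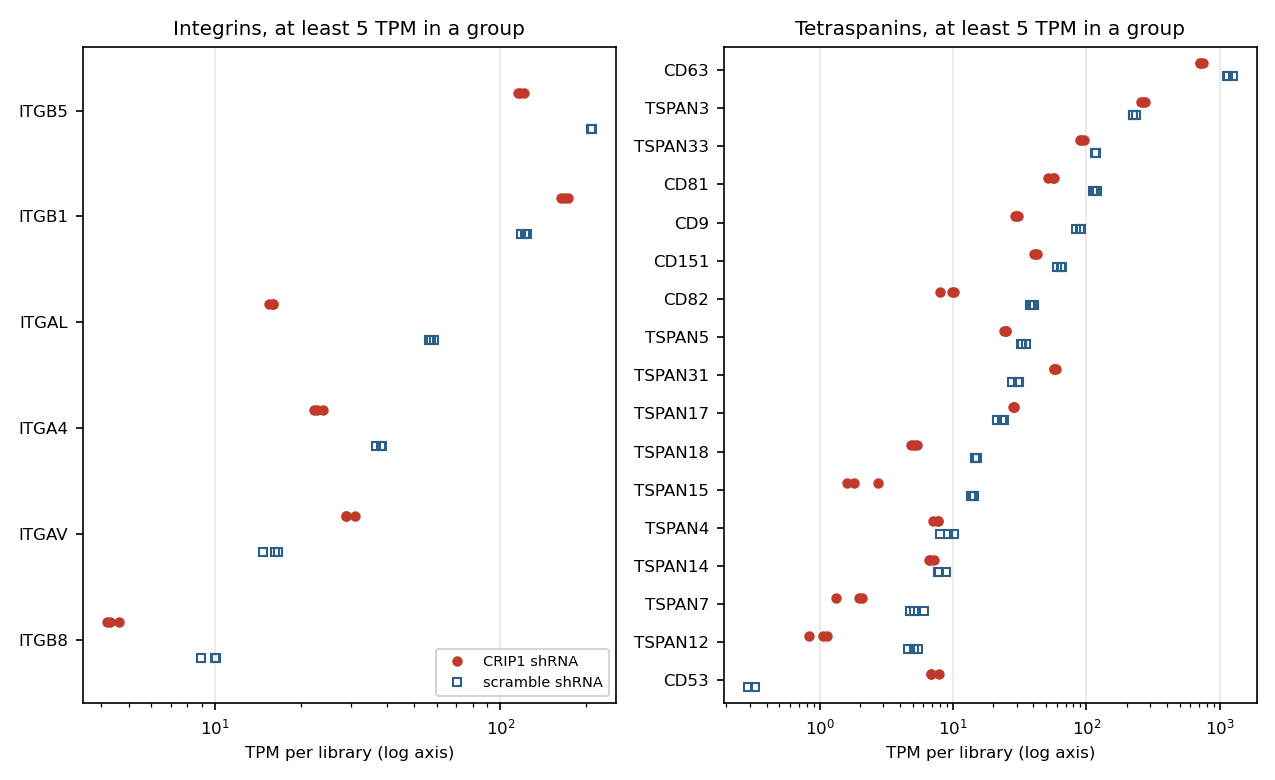
TPM in each of the 6 libraries (log axis) for the 6 integrin chains and 17 tetraspanins with a mean of at least 5 TPM in either group; filled red circles are sh libraries and open blue squares scramble libraries, with genes ordered by their scramble level. A scramble library with 0 TPM of CD53 cannot be drawn on the log axis. The sh and scramble libraries do not overlap in any of these genes, as in 78.5% of all genes tested.

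Of 18 integrin chains tested, 7 were higher and 6 lower, with a median log2 fold change of -0.07. Of 20 tetraspanins tested, 5 were higher and 14 lower, with a median of -0.66, and 45% of them differed by 2-fold or more. Over all genes tested, 39.4% were higher and 38.1% lower, and 18.1% were called at 2-fold or more. These counts include CD53, ITGA2B, ITGA5 and ITGB3, which passed the filter through the sh libraries alone, and ITGAX, through the scramble libraries alone. A difference between the families was not tested.

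Among the beta chains of the set, which leaves out the more abundant ITGB7 (867 TPM in sh and 1865 TPM in scramble cells), the abundance order of the leading pair turned round. ITGB1, the shared partner of most alpha chains (GRCh38 chromosome 10, 32900319 to 33005792 in GENCODE 29), had 169, 164 and 173 TPM in sh cells, against 118, 122 and 124 TPM in scramble cells. ITGB5, which binds vitronectin together with alphaV (chromosome 3, 124761948 to 124901418), had 114.8, 121 and 117 TPM in sh cells, against 207, 207 and 209 TPM in scramble cells. Each sh library therefore held more ITGB1 than ITGB5, and each scramble library more ITGB5 than ITGB1. The fitted log2 fold changes were 0.34 (SE 0.03, adjusted p = 1.58e-08) for ITGB1 and -0.95 (SE 0.04, adjusted p = 2.55e-15) for ITGB5. With the GC trend removed they were 0.15 for ITGB1 and -0.91 for ITGB5. ITGB8, the beta chain through which alphaV holds and activates latent TGF-beta, had 4.63, 4.19 and 4.30 TPM in sh cells, against 8.97, 10.0 and 10.1 TPM in scramble cells. It was 2.44-fold lower (log2 fold change -1.29, SE 0.06).

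ITGAV, the alpha chain that ITGB5 and ITGB8 need, moved the other way (chromosome 2, 186590065 to 186680901). It had 30.9, 28.7 and 28.8 TPM in sh cells, against 14.8, 16.3 and 16.7 TPM in scramble cells (log2 fold change 0.76, SE 0.05, adjusted p = 1.65e-11). The ratio of ITGB5 to ITGAV transcripts was 4 ± 0.26 in sh cells and 13.1 ± 0.784 in scramble cells (SD, n = 3 each), with no overlap between the libraries. Against its alpha partners summed, ITGB1 stood at 2.49 ± 0.0902 TPM per TPM in sh cells and 1.88 ± 0.00813 in scramble cells. These ratios are of transcripts per length and carry no measure of protein or of pairing.

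ITGA4, the chain that binds VCAM1 and fibronectin, and ITGAL, the chain of the lymphocyte antigen LFA-1 that binds ICAM1, both fell. ITGA4 had 24.0, 22.3 and 22.9 TPM in sh cells, against 36.8, 38.5 and 38.3 TPM in scramble cells (log2 fold change -0.82, SE 0.04). ITGAL (chromosome 16, 30472658 to 30523185) had 15.9, 16.0 and 15.4 TPM in sh cells, against 57.2, 56.4 and 58.4 TPM in scramble cells. The level was 3.98-fold lower in sh cells (-1.99 on the log2 scale, SE 0.04), and at 5.39e-19 ITGAL had the smallest adjusted p of the set (edgeR). ITGAL was the third most abundant alpha chain in sh cells, with 18.1% ± 0.343 of summed alpha chain TPM, and the most abundant in scramble cells, with 45.7% ± 0.661 (SD, n = 3 each). ITGAV took 33.8% ± 0.689 of that sum in sh cells and 12.7% ± 0.612 in scramble cells, and ITGA4 took 26.4% ± 0.593 in sh cells and 30.2% ± 0.474 in scramble cells.

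**Figure D2:**
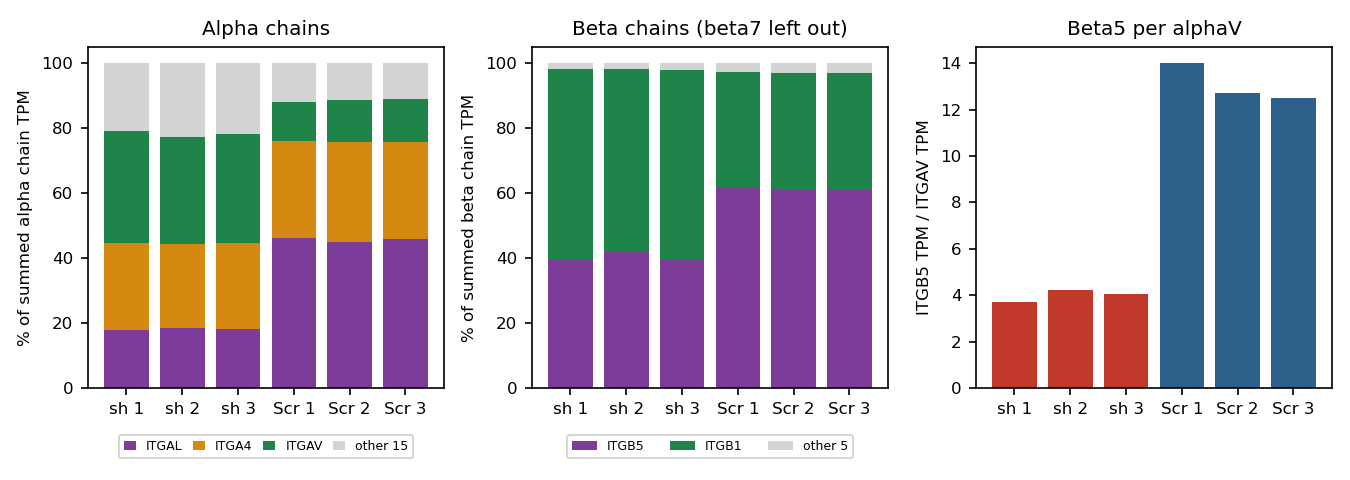
Shares of summed alpha chain TPM (left) and of summed beta chain TPM without beta7 (middle), and TPM of ITGB5 per TPM of ITGAV (right), in each sh library (sh 1 to 3) and each scramble library (Scr 1 to 3). ITGAL makes up 18.1% of alpha chain TPM in sh cells and 45.7% in scramble cells, ITGB1 takes 57.7% of beta chain TPM in sh cells and 35.7% in scramble cells, and the ratio bars stand near 4 in sh and above 12 in scramble libraries.

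ITGB2, the only known partner of ITGAL, was counted in sh cells alone and at a low level. It had 0.36, 0.77 and 1.01 TPM in the sh libraries (54 estimated counts) and 0 counts in all scramble libraries, where ITGAL stood above 56 TPM. With a floor of 3 counts over the scramble group ITGB2 was at least 16.4-fold higher in sh cells (the bound covers counting error only). It did not reach the count filter, and with no filter it differed at an adjusted p of 1.52e-05 (edgeR). The other alpha partners of beta2 were scarce: ITGAM stood at 0.543 ± 0.0321 TPM in sh and 0.517 ± 0.0513 TPM in scramble cells (adjusted p = 0.89), ITGAX fell to 0.18, 0.13 and 0.18 TPM in sh cells, against 0.95, 1.07 and 0.77 TPM in scramble cells (log2 fold change -2.53, SE 0.31), and ITGAD had 0 counts in all 6 libraries, which allows up to 3 counts in each group. ITGAX passed the filter through the scramble libraries alone, which left little room for another direction. ITGAE, which pairs with beta7 and binds E-cadherin, was at 2.16 ± 0.32 TPM in sh and 2.23 ± 0.307 TPM in scramble cells (SD, n = 3 each) and was not called (adjusted p = 0.162). It shares 427 exon bases with HASPIN on the opposite strand, which was lower. It passed the threshold without sh replicate 2 (adjusted p = 0.0482, log2 fold change -0.32). ITGB7 itself, the partner of ITGA4 and ITGAE and outside the set, had 830, 892 and 878 TPM in sh cells, against 1910, 1838 and 1848 TPM in scramble cells, more than any integrin chain of the set in either group.

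The promoters of the integrin chains of at least 5 TPM with the largest fall (ITGB8) and the largest rise (ITGAV) that have an entry in the RefSeq promoter table (GRCh38.p14) are shown so that the regulatory sequence can be read beside the levels. ITGAL has no entry. Each is the 250 bases before the most upstream listed start, on the plus strand, 5′ to 3′, at chr7:20330650-20330899 for ITGB8 and chr2:186589806-186590055 for ITGAV. In GENCODE 29 the gene ITGB8 starts at 20330702, so most of its window lies within the gene as annotated there. The window of ITGAV ends before the GENCODE 29 start of that gene. Capitals mark matches on either strand to the GC box GGGCGG, the CCAAT box, the TATA box TATAAA, the AP-1 site TGANTCA, the GATA site AGATAA, the MAF site TGCTGA and the IRF element, of which none overlapped here.
ITGB8: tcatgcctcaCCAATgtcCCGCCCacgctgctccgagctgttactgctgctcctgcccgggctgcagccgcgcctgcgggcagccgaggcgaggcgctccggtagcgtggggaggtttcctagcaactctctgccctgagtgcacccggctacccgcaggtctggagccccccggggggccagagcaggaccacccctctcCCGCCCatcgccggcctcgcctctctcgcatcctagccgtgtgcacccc
ITGAV: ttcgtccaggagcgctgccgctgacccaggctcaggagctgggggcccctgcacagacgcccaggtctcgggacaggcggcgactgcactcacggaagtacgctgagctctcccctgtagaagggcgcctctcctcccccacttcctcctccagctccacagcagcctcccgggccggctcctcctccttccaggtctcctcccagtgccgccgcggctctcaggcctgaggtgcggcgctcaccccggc
ITGB8 held 2 GC boxes and 1 CCAAT, and ITGAV no match to any of the 7 motifs, while both windows were rich in G and C (71.2% and 70.8%, against a median of 58% over 35116 windows). Over all these windows, 42.6% held the GC box, 32% the CCAAT box, 10.7% the TATA box, 6.57% the AP-1 site, 9.17% the GATA site, 14% the MAF site and 3.02% the IRF element. A match is a run of letters and not a measured binding site.

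The fibronectin receptor chain ITGA5 (chromosome 12, 54395261 to 54419460) had the largest called rise among the integrin chains past the count filter. It had 4.14, 3.80 and 3.49 TPM in sh cells, against 0.40, 0.16 and 0.24 TPM in scramble cells, a 15.1-fold difference (log2 fold change 3.91, SE 0.21, adjusted p = 9.22e-13). ITGA2B and ITGB3, which together form the fibrinogen receptor of platelets, were both higher but low: ITGA2B had 0.85, 0.80 and 0.64 TPM in sh cells, against 0.20, 0.17 and 0.03 TPM in scramble cells, and ITGB3 had 0.21, 0.23 and 0.34 TPM in sh cells, against 0.09, 0.11 and 0.16 TPM in scramble cells. The log2 fold changes were 2.44 (SE 0.39) for ITGA2B and 0.99 (SE 0.38, adjusted p = 0.0218) for ITGB3. ITGA5, ITGA2B and ITGB3 passed the filter through the sh libraries alone, which left little room for another direction. The call of ITGB3 was lost without sh replicate 3 (adjusted p = 0.126), scramble replicate 1 (0.0884) or scramble replicate 2 (0.0712), and in DESeq2 (0.133).

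Markers of other blood cells moved with these chains. Of the 9 megakaryocyte and platelet markers analysed, 5 were tested, and 4 were higher and 0 lower in sh cells. All 5 passed the filter through the sh libraries alone, so this count is a description. Their summed level was 22.2 to 26.5 TPM in sh and 1.24 to 1.86 TPM in scramble libraries, led by GP1BB (13.4 and 0.787 TPM) and NFE2 (8.05 and 0.0233 TPM), whereas SELP had 0 counts in every library and VWF was below 0.1 TPM. All 12 erythroid markers tested, of 14 listed, were higher, with a summed 747 to 758 TPM in sh and 0.15 to 0.23 TPM in scramble libraries, and 13 of the 14 had 0 counts in scramble. These 12 also passed the filter through the sh libraries alone, which left little room for another outcome. HBG2 was at least 517-fold and HBG1 at least 457-fold higher. The part of such cells in the levels of ITGA2B and ITGB3 was not tested.

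The matrix receptors were mixed. Of the laminin receptor chains, ITGA7 (3.80 ± 0.218 TPM in sh and 2.04 ± 0.12 TPM in scramble cells) was higher and ITGA6 (2.98 ± 0.241 and 4.39 ± 0.358 TPM) lower (SD, n = 3 each). ITGA3 (2.34 and 2.44 TPM; log2 fold change -0.19, SE 0.11) and ITGB4 (0.33 and 0.267 TPM; log2 fold change 0.28, SE 0.28) were not called. Of the collagen receptor chains, ITGA10 had 1.40, 1.62 and 1.44 TPM in sh cells, against 0.38, 0.43 and 0.50 TPM in scramble cells (log2 fold change 1.55, SE 0.20), while ITGA2 (0.767 and 0.823 TPM) was not called (log2 fold change -0.24, SE 0.16, adjusted p = 0.179). With the GC trend removed ITGA2 passed as a decrease (adjusted p = 0.0172). ITGA1, ITGA8, ITGA9, ITGA11 and ITGB6 each had 18 or fewer estimated counts over the 6 libraries and were not tested. Epithelial markers, which could accompany matrix receptors, were higher in 5 and lower in 1 of 9 tested, with a summed 93.5 to 102 TPM in sh and 23.6 to 26.8 TPM in scramble libraries, led by KRT18 (27.4 and 0.64 TPM) and EPCAM (22.8 and 9.54 TPM). KRT18 and KRT19 passed the filter through the sh libraries alone. Of 4 fibroblast and endothelial markers tested, 1 was higher and 3 lower, at a summed 6.15 to 6.91 TPM in sh and 8.37 to 9.09 TPM in scramble libraries, led by PDGFRB (1.07 and 6.18 TPM) and COL1A2 (4.61 and 0 TPM), with DCN and THY1 at 0 throughout. COL1A2 passed the filter through the sh and COL1A1 through the scramble libraries alone. The shares called were 66.7% of the epithelial and 100% of the fibroblast and endothelial markers tested, against 77.6% of all genes tested. The part of these markers in the integrin levels was not tested.

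**Figure D3:**
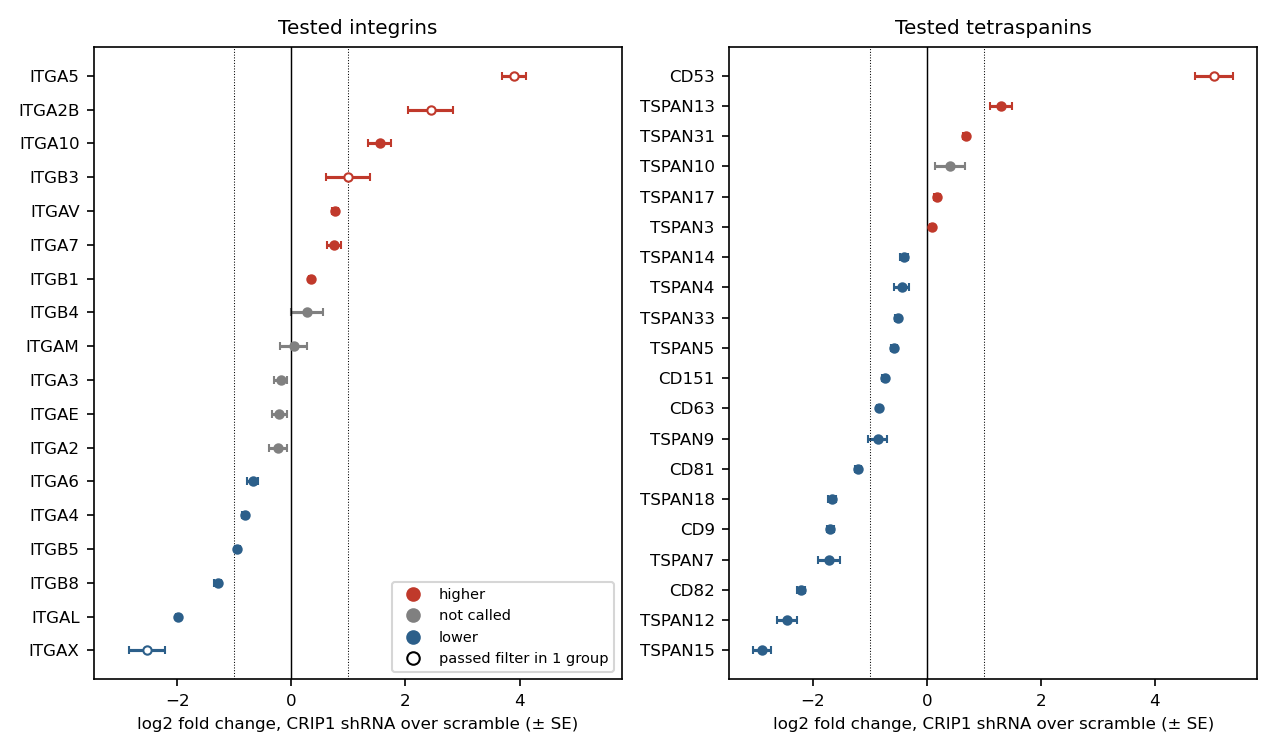
Fitted log2 fold change of sh over scramble cells, with its SE, for the 18 tested integrin chains (left) and 20 tested tetraspanins (right); red points were called higher, blue lower and grey not called, open points passed the count filter in 1 group alone, and dotted lines mark 2-fold. The tetraspanins lie mostly left of 0, down to TSPAN15 at -2.89, with CD53 far to the right at 5.04.

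The tetraspanins with CD names fell, apart from CD53 and CD37. CD63, the tetraspanin of late endosomes and exosomes (chromosome 12, 55725323 to 55729707), was the most abundant gene of the set, with 743, 715 and 716 TPM in sh cells, against 1252, 1141 and 1161 TPM in scramble cells. It made up 52.9% ± 0.497 of summed tetraspanin TPM in sh cells and 59.7% ± 1.28 in scramble cells (SD, n = 3 each). CD81, a broadly expressed tetraspanin that organises receptors at the surface of lymphocytes, had 51.8, 57.1 and 56.7 TPM in sh cells, against 112, 121 and 116 TPM in scramble cells. CD9, a partner of immunoglobulin superfamily proteins in cell fusion and motility, had 29.1, 29.7 and 30.6 TPM in sh cells, against 83.0, 91.1 and 89.2 TPM in scramble cells. In each of these 3 genes the sh libraries lay below every scramble library, and in 78.5% of all genes tested the groups did not overlap. The log2 fold changes were -0.84 (SE 0.04) for CD63, -1.21 (SE 0.05) for CD81 and -1.69 (SE 0.06) for CD9.

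CD82, known as the metastasis suppressor KAI1, fell furthest among the CD-named genes. It had 10.1, 8.05 and 9.77 TPM in sh cells, against 40.2, 39.2 and 37.6 TPM in scramble cells, 4.61-fold lower in sh cells (-2.20 on the log2 scale, SE 0.07). CD151, which binds the laminin receptors directly, had 40.6, 41.6 and 42.3 TPM in sh cells, against 64.3, 60.7 and 65.7 TPM in scramble cells (log2 fold change -0.74, SE 0.05). Its exons share 257 bases with those of POLR2L on the opposite strand, and POLR2L also fell (log2 fold change -0.92, SE 0.06). No strand setting is given for the counting, so reads within the bases that such pairs share cannot be told apart.

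CD53 and CD37, tetraspanins of white blood cells, stood apart. CD53 (chromosome 1, 110871188 to 110899928) had 6.78, 7.81 and 6.80 TPM in sh cells (265 estimated counts), against 0.29, 0.00 and 0.33 TPM in scramble cells (7 estimated counts). At 32.9-fold higher (log2 fold change 5.04, SE 0.33, adjusted p = 2.03e-11) it had the largest fitted change among the genes of the set past the count filter. CD53 passed that filter through the sh libraries alone, which left little room for another direction. CD37 was low, with 0.88, 0.40 and 0.52 TPM in sh cells, against 0.32, 0.10 and 0.11 TPM in scramble cells, and did not reach the count filter. TSPAN32, likewise a tetraspanin of blood cells, had 22 counts over the sh and 2 over the scramble libraries, a ratio of 10 (95% counting interval 2.47 to 88). With no filter, CD37 (adjusted p = 0.0208), TSPAN32 (0.00246) and TSPAN19 (0.00492; 21 counts in sh and 3 in scramble libraries) were called higher by edgeR. Of the 8 myeloid markers analysed, 4 were tested. LYZ, CD33 and SPI1 were higher but passed the filter through the sh libraries alone, and CD68, which passed in both groups, was not called (adjusted p = 0.567). The list stood at a summed 10.2 to 11.7 TPM in sh and 3 to 3.36 TPM in scramble libraries. They were led by LYZ (4.57 and 0.447 TPM) and CD68 (2.55 and 2.55 TPM), while MPO and CSF1R were below 0.1 TPM in both groups. None of 9 markers of T and NK cells was tested, at a summed 1.7 to 2.4 TPM in sh and 0.51 to 0.79 TPM in scramble libraries, with CD3D (1.5 and 0 TPM) and KLRD1 (0.31 and 0.127 TPM) highest and CD4 and NKG7 at 0. Their part in CD53 and CD37 was not tested.

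The TspanC8 group escorts the protease ADAM10 to the cell surface. Of its 6 genes 4 fell, 1 rose and TSPAN10 was not called (adjusted p = 0.162). The share called, 83.3%, is close to the 77.6% of all genes tested. TSPAN15, which directs ADAM10 to N-cadherin, had 1.60, 2.74 and 1.80 TPM in sh cells, against 14.0, 13.6 and 14.3 TPM in scramble cells. It was 7.40-fold lower in sh cells (-2.89 on the log2 scale, SE 0.15), the largest fall of the set. The more abundant genes of the group moved less. TSPAN33 had 88.8, 96.2 and 90.8 TPM in sh cells, against 118, 119 and 117 TPM in scramble cells (log2 fold change -0.51, SE 0.04), and TSPAN5 had 24.1, 25.2 and 24.8 TPM in sh cells, against 33.2, 35.3 and 32.4 TPM in scramble cells (-0.58, SE 0.05). TSPAN14 had 6.72, 7.19 and 6.64 TPM in sh cells, against 7.87, 7.67 and 8.93 TPM in scramble cells (-0.40, SE 0.07). The groups did not overlap in any of these, as in 78.5% of all genes tested. TSPAN17 rose slightly, with 28.5, 28.4 and 28.0 TPM in sh cells, against 24.2, 21.2 and 23.3 TPM in scramble cells (0.18, SE 0.06, adjusted p = 0.0118), a call lost in DESeq2 (adjusted p = 0.0645) and without scramble replicate 2 (0.0916).

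The promoters of TSPAN15 and CD53, the largest fall and the largest rise among the tetraspanins of at least 5 TPM, are shown in the same way, at chr10:69451215-69451464 and chr1:110870960-110871209 (plus strand, RefSeq, GRCh38.p14). Capitals mark matches to the same 7 motifs.
TSPAN15: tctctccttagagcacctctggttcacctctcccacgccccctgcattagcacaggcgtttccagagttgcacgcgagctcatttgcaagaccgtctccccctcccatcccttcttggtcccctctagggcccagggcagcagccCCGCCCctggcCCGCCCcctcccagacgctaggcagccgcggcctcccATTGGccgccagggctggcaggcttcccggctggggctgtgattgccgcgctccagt
CD53: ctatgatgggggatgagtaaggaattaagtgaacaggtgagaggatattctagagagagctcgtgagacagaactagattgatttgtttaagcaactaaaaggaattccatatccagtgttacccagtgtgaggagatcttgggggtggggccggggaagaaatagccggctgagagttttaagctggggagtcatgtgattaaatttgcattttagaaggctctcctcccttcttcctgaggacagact
TSPAN15 held 2 GC boxes and 1 CCAAT, all on the minus strand, in a window of 67.6% G and C with 14 CG pairs. CD53 held no match to the 7 motifs in a window of 45.2% G and C with 3 CG pairs. Of the 39 genes of the set in the table, 19 (48.7%) held a GC box and 11 (28.2%) a CCAAT, against 42.6% and 32% of all windows. The shares of the set use only the most upstream start of each gene, while those of all windows use every listed start, so they are not strictly comparable.

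The remaining tetraspanins went both ways. TSPAN18 had 4.86, 5.34 and 5.10 TPM in sh cells, against 14.6, 14.7 and 15.1 TPM in scramble cells (log2 fold change -1.67, SE 0.07). It shares 74 exon bases with TP53I11 on the opposite strand, which was also lower. TSPAN12, a coreceptor that promotes Norrin signalling through Frizzled in the retina, had 1.14, 1.06 and 0.83 TPM in sh cells, against 5.45, 4.60 and 5.09 TPM in scramble cells (-2.45, SE 0.17), and TSPAN7 had 2.08, 1.33 and 1.96 TPM in sh cells, against 6.10, 5.14 and 4.72 TPM in scramble cells (-1.71, SE 0.19). TSPAN4 had 7.13, 7.66 and 7.67 TPM in sh cells, against 7.93, 10.3 and 9.25 TPM in scramble cells (-0.44, SE 0.13), and TSPAN9 (0.96 TPM in sh and 1.59 TPM in scramble cells) also fell. TSPAN13 rose to 4.95, 4.47 and 4.96 TPM in sh cells, against 1.19, 2.24 and 1.85 TPM in scramble cells (1.30, SE 0.19).

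TSPAN31 had 57.4, 56.8 and 59.5 TPM in sh cells, against 27.7, 31.3 and 30.9 TPM in scramble cells (log2 fold change 0.68, SE 0.05). Its exons share 1369 bases with CDK4 on the opposite strand and 189 bases with AGAP2. CDK4 also rose (720, 725 and 735 TPM in sh cells, against 469, 458 and 447 TPM in scramble cells), while AGAP2 fell to 9.84 ± 0.698 TPM in sh cells, against 18.1 ± 0.812 TPM in scramble cells (SD, n = 3 each). Reads within the bases that TSPAN31 shares with these neighbours cannot be told apart. TSPAN3, the second most abundant tetraspanin, had 277, 255 and 267 TPM in sh cells, against 234, 223 and 225 TPM in scramble cells. Its fitted log2 fold change was only 0.09 (SE 0.04, adjusted p = 0.0443) and was -0.01 with the GC trend removed. The call was also lost without sh replicate 1 (adjusted p = 0.151) or 3 (0.072), without scramble replicate 2 (0.155) or 3 (0.184), in DESeq2 (0.0773) and with no count filter (0.0946). TSPAN1, TSPAN2, TSPAN6 and TSPAN8 had 2 or fewer estimated counts over the 6 libraries, and TSPAN11 had 18.

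Summed over the 28 tetraspanins, the level was 1391, 1356 and 1366 TPM in sh cells, against 2047, 1944 and 1961 TPM in scramble cells. Without CD63 the sums were 646 ± 4.48 TPM in sh and 799 ± 3.43 TPM in scramble cells (SD, n = 3 each). By rank, CD63, TSPAN3 and TSPAN33 led in both groups. TSPAN31 was the 4th tetraspanin in sh and the 9th in scramble cells, and CD53 the 12th in sh and the 20th in scramble cells. CD82 ranked 10th in sh and 7th in scramble cells. In scramble cells TSPAN33 (117 to 119 TPM) and CD81 (112 to 121 TPM) overlapped, as did ITGB1 with both, so their order there is not fixed by these libraries.

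Some genes of the set lie near each other on a chromosome, and their changes are set side by side. Genes outside the set were not considered, so these pairs need not be direct neighbours. CD82 and TSPAN18, 106.1 kb apart on chromosome 11, both fell (log2 fold changes -2.20 and -1.67). CD151 and TSPAN4, 3 kb apart on the same chromosome, both fell (-0.74 and -0.44). ITGA7 and CD63, 9.3 kb apart on chromosome 12, went opposite ways (0.75 and -0.84). CD81 fell while TSPAN32, 58 kb away, had more counts in sh cells. ITGAM and ITGAX, 22.2 kb apart on chromosome 16, had log2 fold changes of 0.04 (not called) and -2.53.

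The 3 genes that carry an integrin name but encode no integrin also differed in part. ITGB1BP1 encodes ICAP1, which binds the beta1 tail and competes with its activators. It had 56.9, 62.4 and 60.3 TPM in sh cells, against 85.9, 86.9 and 85.3 TPM in scramble cells (log2 fold change -0.60, SE 0.04), opposite in direction to ITGB1. It shares 2209 exon bases with ASAP2 on the opposite strand, which was not called (adjusted p = 0.306). ITGB3BP, the kinetochore protein CENP-R, had 140, 137 and 134 TPM in sh cells, against 89.5, 84.7 and 88.0 TPM in scramble cells (0.52, SE 0.05). With the GC trend removed its change was 0.22 (SE 0.05). On the opposite strand its exons share 131 bases with EFCAB7, which was also higher, and 197 bases with PGM1, which was lower. ITGB1BP2, the muscle chaperone melusin, was at 1.23 ± 0.32 TPM in sh and 0.797 ± 0.338 TPM in scramble cells and was not called (adjusted p = 0.172).

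The genes around the integrins were read from 5 lists, with the genes of the set left out. Counting each gene once, 32 were higher and 46 (45.5%) lower, and 77.2% were called, close to the background of 77.6%. On log2(TPM + 1) 41 were higher and 38 lower. Of 24 genes that activate or restrain integrins, 3 were higher and 12 lower (8 and 11 on log2(TPM + 1), 1 and 15 with the GC trend removed). RASSF5, the Rap1 effector RAPL, fell to 133 ± 2.87 TPM in sh cells, against 265 ± 2.21 TPM in scramble cells, with the GTPase RAP1A (-0.95, SE 0.04), its exchange factor RAPGEF1 (-0.66, SE 0.04) and the exchange factor RASGRP2, CalDAG-GEFI (-3.01, SE 0.36; 0.2 and 1.58 TPM). RASGRP2 passed the filter through the scramble libraries alone, which left little room for another direction. Of 21 adhesion adaptors and kinases, 5 were higher and 13 lower (6 and 9 on log2(TPM + 1)). Leupaxin (LPXN; -1.84, SE 0.04) and alpha-actinin 1 (ACTN1; -1.52, SE 0.05) fell, while vinculin (VCL), which ties talin to actin, rose to 37.5 ± 0.418 TPM in sh cells, against 9.16 ± 0.121 TPM in scramble cells (SD, n = 3 each).

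**Figure D4:**
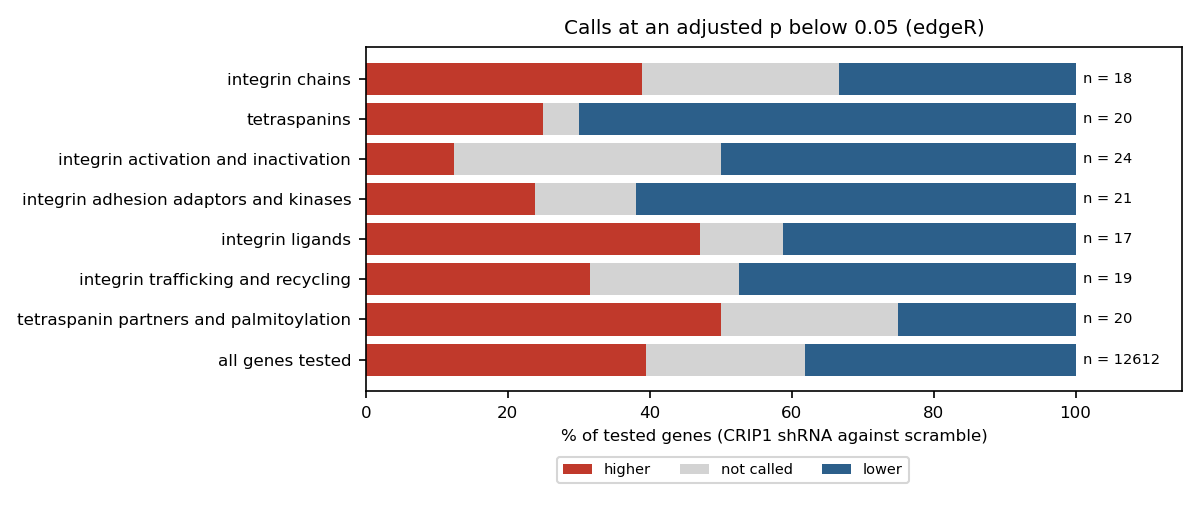
Share of tested genes called higher (red), not called (grey) or lower (blue) in sh against scramble cells for the integrin chains, the tetraspanins, the 5 lists of related genes and all 12612 genes, with the number tested at the right. The share of tested genes called lower was 70% for tetraspanins and 61.9% for adaptors and kinases. It was 25% for tetraspanin partners and palmitoylating enzymes and 38.1% for all genes.

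In the other lists the shares called were 88.2% of ligands, 78.9% of trafficking genes and 75% of tetraspanin partners, against 77.6% of all genes tested. Ligands of integrins were split, 8 higher and 7 lower of 17 tested. The laminin chain LAMB1 (1.64 and 11.7 TPM) and TGFB1 (61.6 and 119 TPM), whose latent form binds alphaV integrins, fell, and the collagen chain COL1A2 was at least 201-fold higher than 0 scramble counts. Of 19 trafficking genes, 6 were higher and 9 lower (9 and 8 on log2(TPM + 1), 4 and 10 with the GC trend removed). The clathrin adaptor subunit AP2M1 (-0.84, SE 0.04) and EHD1 (-0.98, SE 0.05) fell and RASA1 rose (0.71, SE 0.04). Of 20 tetraspanin partners and palmitoylating enzymes, 10 were higher and 5 lower (9 and 8 with the GC trend removed). IFITM1, which sits with CD81 and CD9, rose to 64.8 ± 3.44 TPM in sh cells, against 1.45 ± 0.627 TPM in scramble cells, the CD81 partner CR2 rose (1.54, SE 0.07), and PTGFRN, a direct partner of CD9 and CD81, was at least 89-fold higher than 0 scramble counts. COL1A2, IFITM1 and PTGFRN passed the filter through the sh libraries alone, which left little room for another direction. Moesin (MSN), which links the membrane to actin, fell (-1.02, SE 0.04). EPCAM is in this list and among the epithelial markers, and COL1A2 among the ligands and the fibroblast markers.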

How the data were processed

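Each gene of the deposited table has expected counts (estimated counts, not all whole), FPKM and TPM per library, as deposited by the authors and per the file headers. FPKM and TPM are adjusted for length and depth by the authors. RSEM 1.2.8, Bowtie2 2.2.5 and HISAT2 2.1.0 and the build GRCh38.p13 are listed, per the submitters' processing notes, with no roles; the annotation and strand setting are not given in the sources used here. Libraries were grouped by their titles. The genes of the set and the lists were chosen with earlier results of these data known.

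Counts were rounded and tested with edgeR 4.0.16 (R 4.3.3): filterByExpr at a minimum count of 10, TMM, quasi-likelihood fit on group, Benjamini-Hochberg over the 12612 genes tested, threshold 0.05. Folds are sh over scramble, and each SE was derived from the fitted change and its F statistic (size of the change over the root of F). The fit was also run on simulated counts in which few genes changed, unlike these data, so that run does not check the error rate of the calls here. A group at 0 was given a floor of 3 counts, and 1 to 3 counts an exact 95% binomial interval, covering counting error only. No library pair looked like a repeat deposit (mean within-group chi-square per gene at least 1.62). Genes of the set past the filter were named, with all library values at 5 TPM or more in a group or a called 2-fold change, and so were the 3 genes of smallest adjusted p and the largest called fold of each related list and the 2 most abundant genes of each marker list; others were chosen after their values were seen. Positions and exon overlaps are from GENCODE 29. Alternatives were a replicate block, DESeq2 size factors, upper-quartile scaling, DESeq2 1.42.0, no filter, at least 50 counts in 3 libraries, limma 3.58.1 on log2(FPKM + 1) and log2(TPM + 1) with at least 1 in 3 libraries, a loess GC offset (span 0.5), and each library left out.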

Additional observations from a re-analysis of the deposited data

How the results depend on the processing

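Of the 41 tested genes of the set, 34 kept their direction and side of the threshold under all 15 alternatives in which they were tested. The exceptions were ITGB3, TSPAN3, TSPAN17, TSPAN10, ITGA2, ITGAE and ITGAM, with 13 lost calls (7 of TSPAN3, 4 of ITGB3 and 2 of TSPAN17), 3 gained ones and 4 changes of sign: TSPAN3 to -0.01 with the GC trend removed, and the uncalled ITGAM to -0.02 without sh replicate 2, -0.03 without scramble replicate 1 and -0.02 without scramble replicate 3 (range without each library -0.03 to 0.17). TSPAN10 was called higher on log2(TPM + 1) (adjusted p = 0.0106). Leaving out each library gave 11 to 13 higher and 21 to 22 lower genes, and 5 to 7 higher and 10 lower at 2-fold or more. The median log2 fold change of the set was -0.11 with no filter and -0.14 in DESeq2, against -0.40. The number higher at 2-fold was 8 in DESeq2, 9 with no filter, 2 on log2(FPKM + 1) and 3 on log2(TPM + 1), against 5. Adding 1 shrinks the folds of low genes, and a looser filter admits genes with few counts. Of all called genes 50.8% were higher, 61.4% on log2(TPM + 1) and 42.9% with the GC trend removed. The replicate numbers did not pair the libraries (correlations of same-numbered deviations 0.0455, -0.00877 and -0.0133), and with the replicate block the counts stayed at 13 higher and 21 lower. Depth limits the chains with few counts, such as ITGB2, CD37 and TSPAN32, whose levels rest on 54, 27 and 24 counts in all.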
